A study of Capra hircus with 30 samples.

Results

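The genes described here are 10 genes of the growth hormone, insulin and insulin-like growth factor (IGF) system in ovarian granulosa cells (GCs) of the goat. They were found in the expression table by their NCBI gene numbers, and all 10 had a row among its 20125 features. They are the growth hormone receptor GHR (100860790), the ligand IGF1 (100860838), the receptors IGF1R (100861165), IGF2R (100860744) and INSR (102168996), the adaptor IRS1 (102184858), the binding proteins IGFBP2 (102175172), IGFBP4 (100860812) and IGFBP5 (100860950), and the protease PAPPA (102179947). The GCs came from Ji'ning grey goats of a High fertility and a Low fertility population, and from small, medium and large follicles of each. The 30 libraries of total RNA fell into 6 groups of 5, HLG, HMG and HSG for large, medium and small follicles of the High fertility population, and LLG, LMG and LSG for those of the Low fertility population. The methods of the study say that each population was sampled from several goats and that the GCs of each follicle size were then divided into samples of a few cells each. Which goats a library holds is not stated, so the p-values below measure only the spread between these samples. A library name gives its group and its number from the labels (5, 7, 8, 9 or 10).

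Growth hormone acts through GHR and raises IGF1 output in many tissues. IGF1 binds IGF1R, a tyrosine kinase receptor close in structure to the insulin receptor INSR, and both pass their signal through adaptors such as IRS1 to the PI3K and MAPK pathways. In the follicle, IGF1 is known to act together with FSH on the proliferation and steroid synthesis of GCs. IGF2R carries IGF2 to lysosomes for degradation. The IGF binding proteins hold IGFs away from their receptors, and PAPPA cuts IGFBP4 and IGFBP5, which frees the bound IGF.

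Values are FPKM, fragment numbers relative to the length of a gene and to the fragments mapped in its library. FPKM summed over all features ranged from 33640 to 82952 per library, and between 301 and 9256 features were above 0 in a library. In 7 libraries (HLG-5, HLG-8, HMG-8, HSG-5, LLG-5, LLG-7 and LLG-10) fewer than 2000 features were above 0. A list of libraries with mapping figures in the study lacks 4 libraries (HLG-5, HSG-5, LLG-5 and LLG-7). Read totals were not used here, so no counting interval is given. A value of 0 is written below as "listed at 0", because genes that every cell uses were also at 0 in many libraries. Of 11 such genes, EEF1A1 was above 0 in the most libraries (26) and RPS3 in the fewest (10). Of 8 granulosa cell genes in the table, INHBA was above 0 in 14 libraries and CYP19A1 (aromatase) in 10, FST in 8, NR5A2 in 5, HSD17B1 in 3 and INHA in 2. The defining genes FSHR and AMH were above 0 in 1 library each, so the labelled cell type rests on few detected markers in any single library. Markers of other cell types were found as well. The 5 oocyte genes in the table were above 0 in 1 to 6 libraries, the 5 stroma genes in 7 to 19 and the 5 endothelial genes in 4 to 14. The 5 immune genes were above 0 in 1 to 8 libraries and the 3 erythroid genes in 2 to 5. The 3 genes listed for theca, LHCGR, STAR and NR5A1, were above 0 in 3 to 7 libraries. The study names LHCGR as a gene high in GCs, so this list does not tell theca from GCs. Fewer cells of a type and less RNA per cell cannot be told apart in such samples.

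The IGF system was detected in a scattered way. Of the 300 values of the 10 genes in the 30 libraries, 116 (38.7%) were above 0, compared with 23.9% of the values of all 17946 features with an NCBI gene number. None of the 10 genes was above 0 in all 30 libraries. IGF1 was found most often, in 21 libraries, followed by IRS1 in 17, IGF1R in 16, IGFBP5 in 15, INSR in 14, GHR in 13, PAPPA in 10 and IGF2R in 7. IGFBP2 was above 0 in 2 libraries and IGFBP4 in 1. From IRS1 to GHR, neighbours in this order differed by 1 library. A member was above 0 in a median of 13.5 libraries and an NCBI-numbered feature in a median of 5. IGF1 was above 0 in more libraries than 97.1% of the NCBI-numbered features, and IGFBP2 in more than 13.3% of them.

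**Figure D1:**
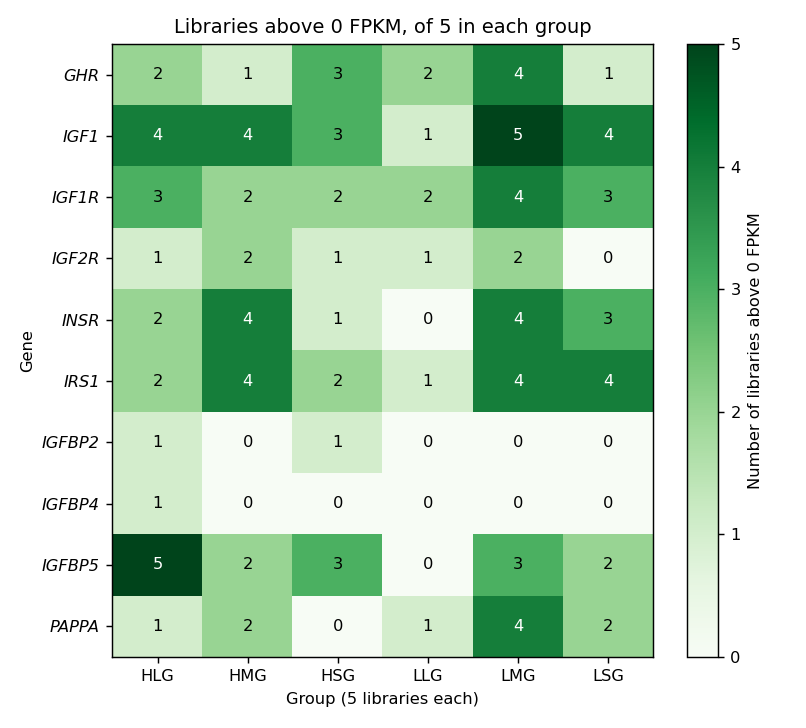
Libraries above 0 FPKM for each of the 10 genes (rows) in each of the 6 groups (columns), out of 5 libraries per cell. LMG has 4 or 5 detected libraries for 6 of the 10 genes, IGFBP5 stands at 5 in HLG and 0 in LLG, and IGFBP2 and IGFBP4 are nearly empty.

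Levels were low where the genes were found. The median of the 116 values above 0 was 0.4 FPKM, against 0.52 FPKM for NCBI-numbered features. At least 1 FPKM was reached by 34 of the values, and at least 10 FPKM by 1, GHR in LLG-9. At the lower end, 21 of the 116 values (18.1%) were at most 0.05 FPKM, close to the smallest value written in the table (0.01), compared with 14.1% of the values above 0 of NCBI-numbered features. The 10 genes together took between 0 and 0.0285% of the summed FPKM of a library.

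The number of the 10 genes above 0 differed between groups, and so did the number of all features above 0. Libraries of High fertility held 4.4 ± 2.30 of the genes (HLG), 4.2 ± 1.64 (HMG) and 3.2 ± 2.77 (HSG; SD, n = 5 each). Those of Low fertility held 1.6 ± 2.07 (LLG), 6 ± 2.83 (LMG) and 3.8 ± 2.28 (LSG; SD, n = 5 each). The 6 groups overlapped, with ranges of 2 to 8, 2 to 6, 0 to 7, 0 to 5, 1 to 8 and 1 to 6 in the same order. In these groups 3561 ± 2414, 5337 ± 2415, 4357 ± 2141, 2091 ± 2242, 7774 ± 1325 and 5598 ± 1838 features were above 0 (SD, n = 5 each). LMG was highest and LLG lowest in both counts. HLG had the second highest count of the genes and the second lowest count of features. Its share of member values above 0 was 44% with 17.8% of NCBI-numbered features above 0, whereas in LMG these shares were 60% and 38.8% and in LLG 16% and 10.3%.

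Libraries with few features held few of the 10 genes. With limits chosen after the values were seen, the 7 libraries with fewer than 2000 features held 0 to 3 of them (median 1) and the 4 libraries with 2000 to 4000 features held 1 to 5 (median 3). The 8 libraries with 4000 to 6000 features held 1 to 6 (median 4) and the 11 libraries with more features held 1 to 8 (median 7). There were exceptions. LMG-7 had 6414 features above 0 and 1 of the 10 genes, IGF1, and HSG-7 had 5078 features and only GHR, at 0.03 FPKM. HSG-5, LLG-7 and LLG-10 had none of the 10 genes. HLG-10 and LMG-9 had the most, 8. The part of detected features in the differences between groups that follow was not tested beyond the covariate fit described in the closing section.

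**Figure D2:**
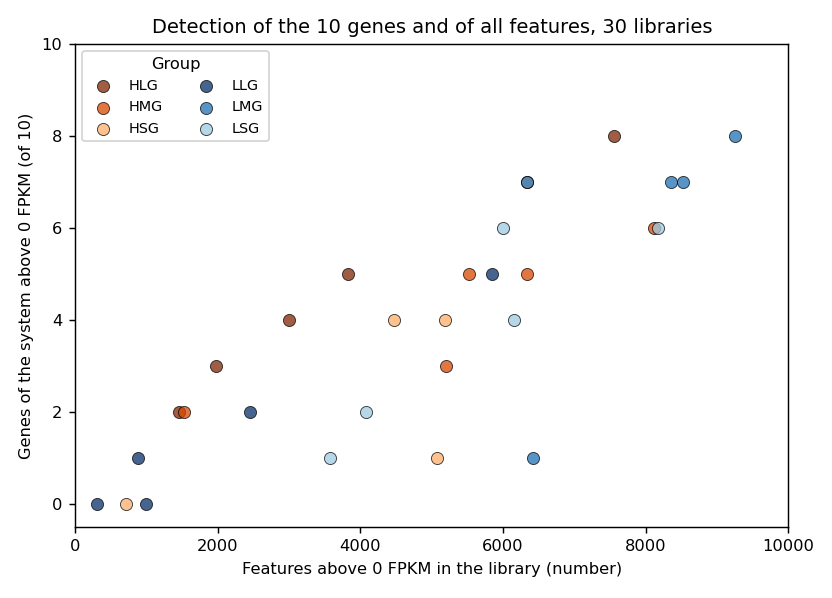
Genes of the IGF system above 0 (vertical axis, of 10) against all features above 0 FPKM (horizontal axis) in each of the 30 libraries, coloured by group. The 7 libraries left of 2000 features have at most 3 of the genes, LMG-7 lies apart at 6414 features and 1 gene, and the point of HSG-8 (6328 features, 7 genes) lies under that of LMG-10 (6330 features, 7 genes).

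IGF1, the ligand, was the most frequent of the 10 genes and had 13 values of at least 1 FPKM. In HLG it was 5.76 FPKM in HLG-5, 4.42 in HLG-8, 2.17 in HLG-9 and 0.79 in HLG-10, and listed at 0 in HLG-7. In LLG it was 0.79 FPKM in LLG-8 and listed at 0 in the other libraries. Only 1 LLG library therefore reached the lower end of the HLG values above 0. In HMG, IGF1 was 1.98 FPKM in HMG-10, 0.57 in HMG-5, 3.94 in HMG-7 and 1.77 in HMG-9, and in LMG it was 3.28 in LMG-10, 0.14 in LMG-5, 0.64 in LMG-7, 0.58 in LMG-8 and 3.85 in LMG-9. These groups overlapped over nearly their whole range. In small follicles it was 1.21 FPKM in HSG-10, 1.07 in HSG-8 and 0.03 in HSG-9, and 5.15 in LSG-10, 1.7 in LSG-5, 0.23 in LSG-7 and 1.64 in LSG-8. The other libraries of HMG, HSG and LSG were listed at 0. Group medians were 2.17 FPKM in HLG, 1.77 in HMG, 0.03 in HSG, 0 in LLG, 0.64 in LMG and 1.64 in LSG, and the ranges of all 6 groups overlapped.

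GHR, which binds growth hormone, held the single highest value of the 10 genes. It was 23.62 FPKM in LLG-9, where it ranked 87 among 2195 NCBI-numbered features above 0, and this 1 library held 70.2% of the FPKM of GHR summed over the series. The other LLG libraries were listed at 0, apart from 0.02 FPKM in LLG-8. In LMG, GHR was 3.24 FPKM in LMG-10, 1.14 in LMG-5, 0.01 in LMG-8 and 1.56 in LMG-9, and listed at 0 in LMG-7. LMG was the only group with more than 1 library above 1.14 FPKM. In the remaining groups it was 0.05 FPKM in HLG-10 and 0.02 in HLG-7, 1.6 in HMG-10, 1.14 in HSG-10, 0.03 in HSG-7 and 0.33 in HSG-8, and 0.87 in LSG-10, with all other libraries listed at 0. HLG had no value above 0.05 FPKM, and 5 of the 13 values of GHR above 0 were at most 0.05 FPKM.

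IGF1R, the receptor of IGF1, was frequent but low, with 2 of its 16 values above 0 at 1 FPKM or more. It was 0.01 FPKM in HLG-10, 1.01 in HLG-7 and 1.83 in HLG-9, and 0.18 in LLG-8 and 0.01 in LLG-9. In medium follicles it was 0.22 in HMG-10 and 0.74 in HMG-9, and 0.14 in LMG-10, 0.12 in LMG-5, 0.18 in LMG-8 and 0.31 in LMG-9. In small follicles it was 0.32 in HSG-8 and 0.45 in HSG-9, and 0.78 in LSG-5, 0.26 in LSG-8 and 0.76 in LSG-9. The other libraries were listed at 0. Both values over 1 FPKM came from HLG, and every group had libraries at 0, so all groups overlapped.

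INSR, the insulin receptor, was found most often in medium follicles. It was above 0 in 8 of the 10 libraries from medium follicles, at 0.33 FPKM in HMG-10, 0.34 in HMG-5, 0.05 in HMG-8 and 0.29 in HMG-9, and at 2.27 in LMG-10, 0.29 in LMG-5, 0.19 in LMG-8 and 0.34 in LMG-9. In large follicles it was 0.84 FPKM in HLG-10 and 0.22 in HLG-9 and listed at 0 in all 5 LLG libraries. In small follicles it was 0.88 FPKM in HSG-8, 0.12 in LSG-10, 0.08 in LSG-5 and 0.01 in LSG-8. LMG-10 was the only library at 1 FPKM or more, and the values of medium follicles overlapped those of the other sizes.

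IGF2R, the clearance receptor of IGF2, was above 0 in 7 libraries and in none of LSG. It was 1.72 FPKM in HMG-7, 0.58 in LLG-8, and 0.39 in both LMG-10 and LMG-9. It was near the lower end of the table in HLG-7 and HSG-9, at 0.04 FPKM each, and in HMG-9, at 0.02. A single library, HMG-7, thus held 54.1% of the summed FPKM of IGF2R. Its ligand IGF2 was above 0 in 3 libraries, with a highest value of 1.24 FPKM in HSG-9.

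IRS1, the adaptor downstream of both tyrosine kinase receptors, was above 0 in 17 libraries. Its values were 0.48 FPKM in HLG-10 and 0.02 in HLG-9, and 1.17 in LLG-8. In medium follicles they were 0.41 FPKM in HMG-10, 0.08 in HMG-5, 0.19 in HMG-7 and 0.04 in HMG-8, and 0.46 in LMG-10, 0.52 in LMG-5, 0.65 in LMG-8 and 0.48 in LMG-9. The LMG values lay close together, above all 5 HMG values, apart from LMG-7 at 0. In small follicles IRS1 was 6.1 FPKM in HSG-10 and 0.06 in HSG-8, and 1.51 in LSG-10, 0.11 in LSG-5, 0.81 in LSG-7 and 2.24 in LSG-8. The remaining libraries were listed at 0. Of the 4 values at 1 FPKM or more, 3 came from small follicles. The highest, in HSG-10, was 39.8% of the summed FPKM of IRS1.

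Among the binding proteins only IGFBP5 was found often. In HLG it was above 0 in all 5 libraries, at 0.08 FPKM in HLG-10, 0.59 in HLG-5, 0.03 in HLG-7, 4.48 in HLG-8 and 0.01 in HLG-9, whereas it was listed at 0 in all 5 LLG libraries. These groups did not overlap, although 2 of the 5 HLG values were at most 0.03 FPKM. In medium follicles IGFBP5 was 0.35 FPKM in HMG-10 and 2.67 in HMG-5, and 1.07 in LMG-5, 0.09 in LMG-8 and 0.79 in LMG-9. In small follicles it was 0.18 FPKM in HSG-10, 0.13 in HSG-8 and 0.28 in HSG-9, and 1.74 in LSG-10 and 0.05 in LSG-8. All other libraries were at 0, and the groups of these sizes overlapped. IGFBP2, the neighbour of IGFBP5 in the RefSeq order of the goat assembly ARS1.2 with no gene between them, was 1.1 FPKM in HLG-10 and 0.3 in HSG-8. IGFBP4 was found only in HLG-5, at 0.1 FPKM.

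PAPPA, the protease that cuts IGFBP4 and IGFBP5, was above 0 in 10 libraries. In LMG it was 2.02 FPKM in LMG-10, 0.05 in LMG-5, 0.04 in LMG-8 and 0.19 in LMG-9. Elsewhere it was 0.47 FPKM in HLG-10, 0.14 in HMG-5, 0.75 in HMG-9, 0.27 in LLG-5, 0.01 in LSG-10 and 1.08 in LSG-8, and it was listed at 0 in all 5 HSG libraries. No group stood apart, since each had at least 1 library at 0.

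**Figure D3:**
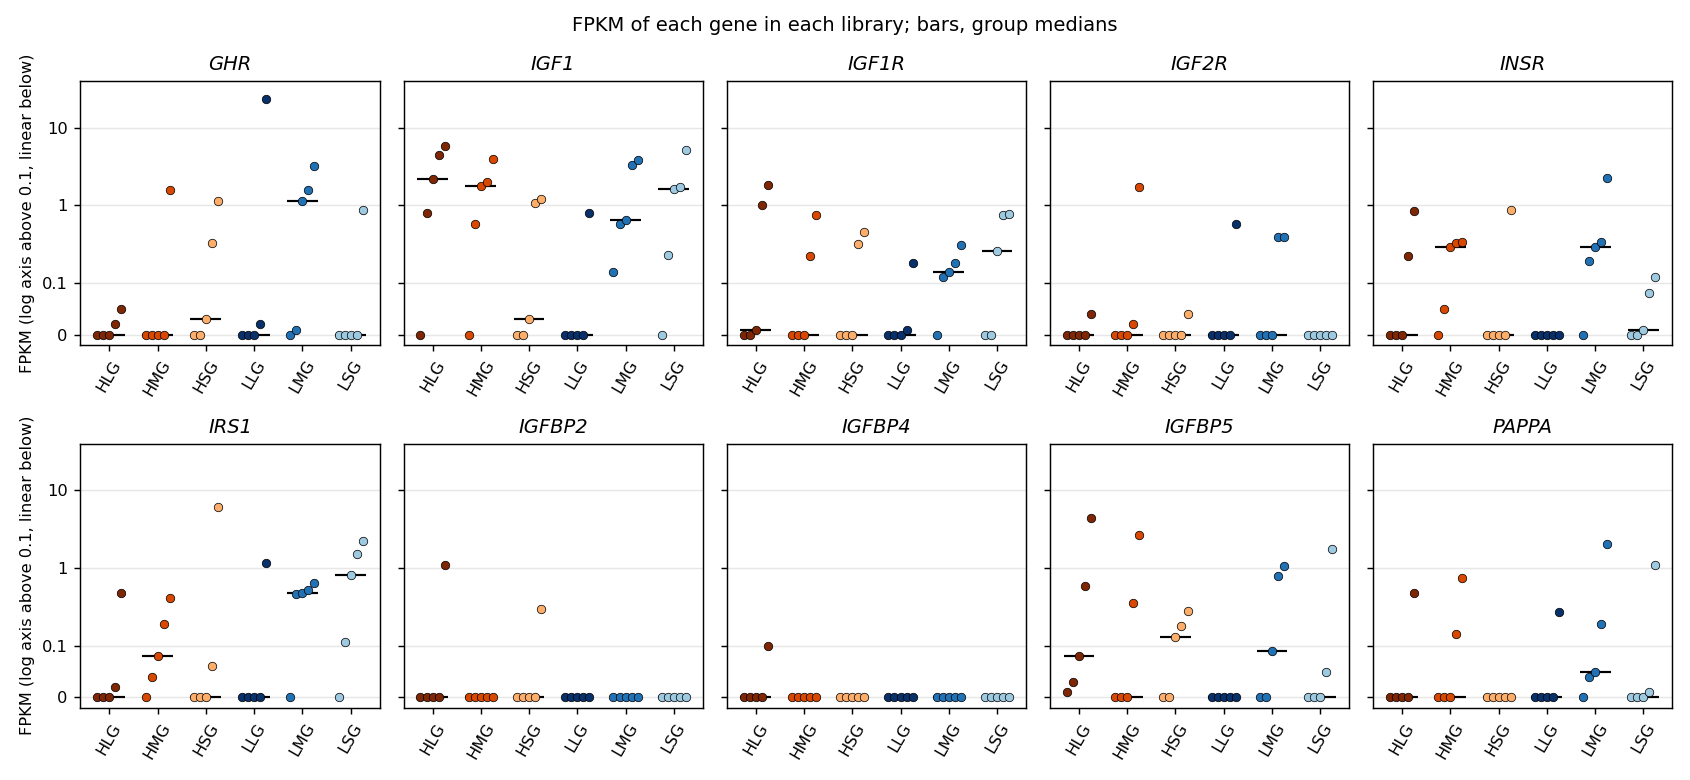
FPKM of the 10 genes in each of the 30 libraries (points), 1 panel per gene and 1 column per group, on an axis that is logarithmic above 0.1 FPKM and linear below, with bars at the group medians. GHR in LLG-9 (23.62 FPKM) is the only value above 10, and IGFBP5 is the only gene with all 5 HLG libraries above a group (LLG) wholly at 0.

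To compare the High and Low fertility populations, log2(FPKM + 1) of all 30 libraries was fitted in limma over the 6058 features with more than 0.5 FPKM in at least 5 libraries. GHR, IGF1, IGF1R, IRS1 and IGFBP5 passed this filter. INSR, IGF2R, IGFBP2, IGFBP4 and PAPPA did not and were compared by detection only. Of the libraries above 0.5 FPKM, LMG held 3 of 7 for GHR and small follicles 4 of 7 for IRS1. HLG held 2 of 5 for IGF1R and 2 of 6 for IGFBP5. Without these libraries these genes would not have passed the filter, so their fits depend on groups where they were often high. Differences are given in log2(FPKM + 1) units, where genes near 0 show less change than in FPKM itself. The p-values of limma are two-sided and adjusted by Benjamini and Hochberg over the 6058 features, with a threshold of 0.05.

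In large follicles IGF1 had a difference of 1.37 ± 0.61 between HLG and LLG (log2, SE, 95% interval 0.14 to 2.60), which did not pass the test (limma, unadjusted p = 0.0295, adjusted p = 0.976). It was the only 1 of the 5 fitted genes with an unadjusted p under 0.05, which 4.8% of the 6058 features had, and 0% of the features were called after adjustment. Leaving out the 7 libraries with fewer than 2000 features, of which HLG and LLG held 5, reduced the difference of IGF1 to 0.41. IGFBP5 differed by 0.66 ± 0.39 (-0.13 to 1.45, limma adjusted p = 0.976) and by 0.21 when HLG-8 was left out. Of its 6 libraries above 0.5 FPKM, 2 were from HLG, without which it would not have passed the filter. Its fit thus depended on the group where it was high. Without the libraries with fewer than 2000 features, IGFBP5 did not pass the filter and was not fitted. GHR differed by -0.91 ± 0.56 (-2.04 to 0.22), with its highest value in LLG-9. In the other LLG libraries GHR was at most 0.02 FPKM and in HLG at most 0.05, so this difference rested on a single library. IGF1R, which passed the filter only with its HLG libraries, differed by 0.45 ± 0.28 and IRS1 by -0.10 ± 0.43. The median over all features was 0.10.

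By detection, IGFBP5 was the gene that separated HLG from LLG, with 5 of 5 against 0 of 5 libraries above 0. Its p of 0.00794 in Fisher's exact test (two-sided) is the smallest that 5 against 5 libraries can give, and the adjusted p over 20125 features was 1. An unadjusted p under 0.05 was reached by 0.303% of the features, and 0% were called after adjustment. All HLG libraries lay above all LLG libraries for 7 features (0.0348%) and the reverse held for 1 (0.00497%), and 4 features (0.0199%) were above 0 in all HLG and no LLG libraries. As this separation was complete for IGFBP5, leaving out libraries could not undo it, and the smaller sets are no check of it. Without the 4 libraries absent from the mapping list, IGFBP5 was detected in all of the 4 HLG libraries left and 0 of 3 from LLG. Without the libraries with fewer than 2000 features it was detected in 3 of 3 and 0 of 2 (Fisher's exact test, p = 0.1, the smallest these numbers allow). Of the 10 genes, 7 were above 0 in more HLG than LLG libraries and 0 in fewer, where 38.1% of all features were in more and 14.0% in fewer. The marker lists had overlapping ranges in both groups. The summed FPKM of the granulosa cell genes ranged from 0 to 22.16 in HLG and from 0 to 2.49 in LLG, that of the stroma genes from 0 to 4.69 and from 0 to 0.86, that of the endothelial genes from 0 to 1.18 and from 0 to 0.11, that of the oocyte genes from 0 to 0.36 and at 0, that of the erythroid genes from 0 to 0.53 and at 0, and that of genes used by most cells from 0.87 to 190.27 and from 0.56 to 66.06. The genes listed for theca, which do not tell theca from GCs, summed to 0 to 0.03 in HLG and 0 to 2.81 in LLG. The immune genes summed to 0 to 1.34 in HLG and 0 to 1.98 in LLG. FSHR and AMH were above 0 in 1 library each of the 30. The part of cell makeup and of detected features in the difference of IGFBP5 was not tested.

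In medium follicles, 0 of the 5 fitted genes had an unadjusted p under 0.05 in HMG against LMG, against 5.15% of the features, and 0% of the features passed the adjusted threshold. GHR had the lowest p, with a difference of -0.63 ± 0.56 (log2, SE, -1.76 to 0.49, limma adjusted p = 1), and -0.34 without LMG-10. It passed the filter only with its LMG libraries. IGF1 differed by 0.012 ± 0.61. The 10 genes were in fewer HMG than LMG libraries for 5 genes and in more for 0, and 51.4% of all features were in fewer and 17.8% in more. An unadjusted p under 0.05 in Fisher's exact test was found for 0 of the 10 genes and for 1.49% of all features.

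In small follicles, the lowest p of the fitted genes in HSG against LSG belonged to IGF1, at -0.70 ± 0.61 (log2, SE, -1.93 to 0.53, limma adjusted p = 0.919). Without LSG-10 its difference was -0.34. None of the 5 genes had an unadjusted p under 0.05, which 6.39% of the features had, and 0% of the features passed after adjustment. The 10 genes were in more HSG libraries for 4 and in more LSG libraries for 5, where 22.1% of all features were in more HSG and 40.9% in more LSG libraries. By Fisher's exact test 0 of the 10 genes and 0.626% of all features had an unadjusted p under 0.05.

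Averaged over the follicle sizes, none of the fitted genes passed the test between High and Low fertility. IGF1 differed by 0.23 ± 0.35 (log2, SE, 95% interval -0.48 to 0.94), IGF1R by 0.089 ± 0.16 (-0.24 to 0.41) and IGFBP5 by 0.19 ± 0.23 (-0.27 to 0.65). IRS1 differed by -0.21 ± 0.25 (-0.71 to 0.28) and GHR by -0.47 ± 0.32 (-1.12 to 0.18). Every one of these intervals included 0. Adjusted p-values in limma lay between 0.952 and 0.978, 0 of the 5 genes and 3.95% of the features had an unadjusted p under 0.05, and 0% of the features were called. All 5 values changed in size with single libraries, although none changed direction when a single library was left out. GHR differed by -0.16 without LLG-9, IGFBP5 by 0.039 without HLG-8 and by 0.071 without HMG-5, and IRS1 by -0.40 without HSG-10. With each library left out in turn, IGF1 ran from 0.13 to 0.36, IRS1 from -0.40 to -0.14 and IGF1R from 0.056 to 0.13 (25 fits). By Fisher's exact test, 0 of the 10 genes had an unadjusted p under 0.05, against 0.85% of all features.

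**Figure D4:**
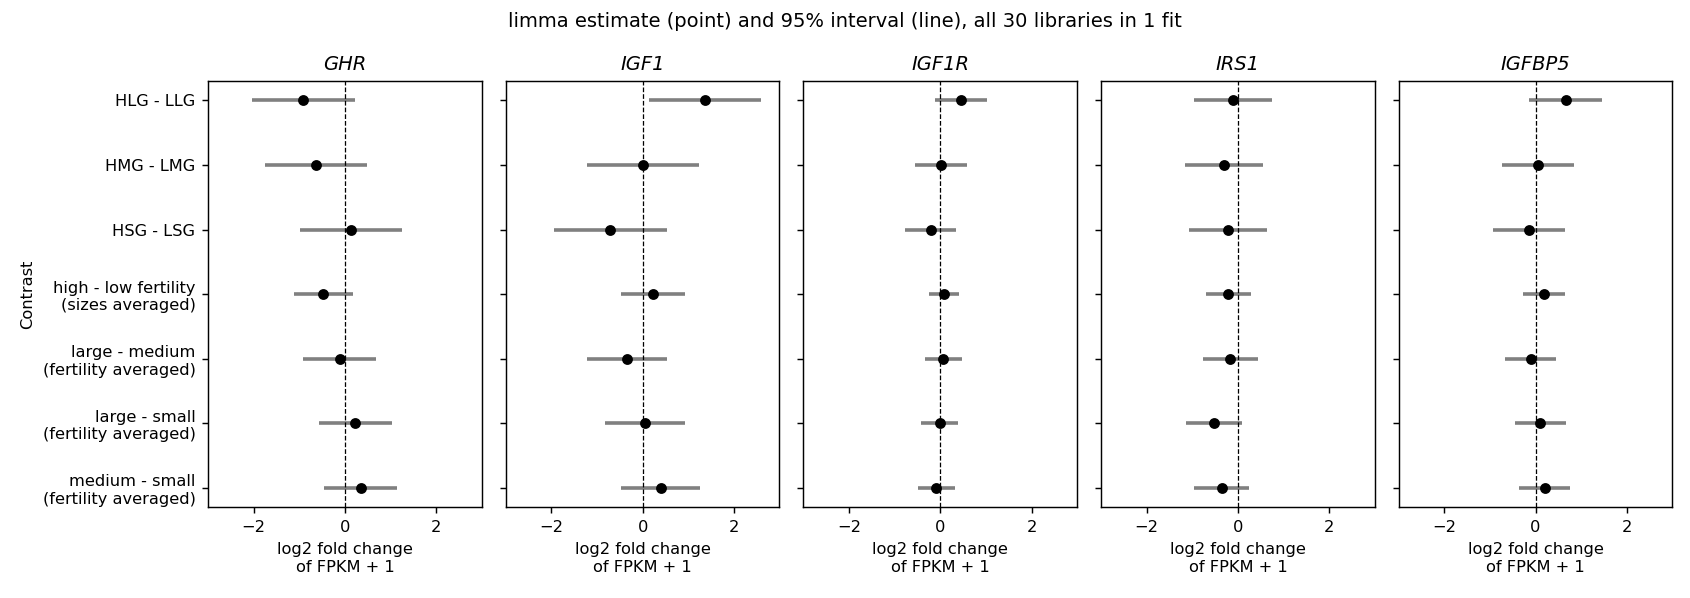
Log2 fold change on log2(FPKM + 1) with its 95% interval (limma, 30 libraries) of the 5 genes that passed the filter, in the fertility comparisons and the 3 pairs of follicle sizes. All intervals include 0 except that of IGF1 in HLG against LLG, 0.14 to 2.60, whose adjusted p was 0.976.

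Whether the fertility difference itself differed between sizes was tested by the interaction term. IGF1, whose log2 difference was 1.37 in HLG against LLG and -0.70 in HSG against LSG, had the lowest p of the fitted genes (limma, unadjusted p = 0.0607, adjusted p = 0.895). An unadjusted p under 0.05 was found for 0 of the 5 genes and for 4.67% of the features, and 0% were called.

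Follicle sizes were compared over both populations. Between large and medium follicles, IGF1 differed by -0.34 ± 0.43 (log2, SE, -1.21 to 0.53), IGF1R by 0.071 ± 0.20, IRS1 by -0.16 ± 0.30, GHR by -0.12 ± 0.39 and IGFBP5 by -0.10 ± 0.28, with a median of -0.25 over all features. The adjusted p-values were 0.753 to 0.918 (limma), 0 of the 5 genes had an unadjusted p under 0.05 against 11.5% of the features, and 0% of the features were called. GHR differed by -0.58 without LLG-9, by 0.020 without HMG-10 and by 0.029 without LMG-10, and IGFBP5 by 0.074 without HMG-5. With each library left out in turn, IGF1 ran from -0.49 to -0.15, IGF1R from 0.044 to 0.13 (25 fits) and IRS1 from -0.28 to -0.12. By detection, INSR was above 0 in 2 of 10 libraries from large and 8 of 10 from medium follicles (Fisher's exact test, p = 0.0230, adjusted p = 0.468). It was 1 of 10 genes with an unadjusted p under 0.05, which 6.17% of all features had, and 0% of the features passed after adjustment. In all, 7 of the 10 genes and 73.8% of all features were above 0 in fewer libraries from large than from medium follicles. Without the libraries with fewer than 2000 features INSR was above 0 in 2 of 5 and 7 of 9 libraries (Fisher's exact test, p = 0.266).

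Between large and small follicles, IRS1 had the lowest p of the fitted genes, although it passed the filter only with its libraries from small follicles. It differed by -0.52 ± 0.30 (log2, SE, -1.13 to 0.084, limma adjusted p = 0.607), and by -0.24 without HSG-10. IGF1 differed by 0.055 ± 0.43, IGF1R by -0.014 ± 0.20, GHR by 0.23 ± 0.39 and IGFBP5 by 0.10 ± 0.28, and GHR differed by -0.23 without LLG-9 and IGFBP5 by -0.12 without HLG-8. With 1 library left out, the direction turned in 7 of 30 fits for IGF1 (-0.097 to 0.25), in 5 of 25 for IGF1R (-0.064 to 0.049) and in 1 of 30 each for GHR and IGFBP5. The median over all features was -0.19, 8.42% of the features and 0 of the 5 genes had an unadjusted p under 0.05, and 0% of the features were called. By Fisher's exact test, 0 of the 10 genes and 1.66% of all features had an unadjusted p under 0.05.

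Between medium and small follicles, IGF1 differed by 0.39 ± 0.43 (log2, SE), IGF1R by -0.085 ± 0.20, IRS1 by -0.36 ± 0.30, GHR by 0.35 ± 0.39 and IGFBP5 by 0.20 ± 0.28. Without HSG-10, IRS1 differed by -0.078, and without HMG-5, IGFBP5 differed by 0.026. With each library left out in turn, IGF1 ran from 0.25 to 0.58, GHR from 0.20 to 0.46 and IGF1R from -0.13 to -0.041 (25 fits). The adjusted p-values were 0.994 to 0.998 (limma). An unadjusted p under 0.05 was found for 0 of the 5 genes and 5.13% of the features, and 1 feature (0.0165%), which was none of the 10 genes, was called after adjustment. By detection, 7 of the 10 genes were in more libraries from medium than from small follicles and 1 in fewer, against 56.0% and 23.0% of all features. By Fisher's exact test, 0 of the 10 genes and 0.979% of all features had an unadjusted p under 0.05.

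Ligand and receptor were often, but not always, found in the same library. IGF1 and IGF1R were both above 0 in 13 libraries, IGF1 alone in 8, IGF1R alone in 3 and neither in 6. GHR was above 0 beside IGF1 in 10 libraries. IRS1 was found with IGF1 in 16 of its 17 libraries and INSR with IRS1 in 13 of its 14. IGFBP5 was found with IGF1 in 14 of its 15 libraries. PAPPA was found beside IGFBP5, which it can cut, in 7 of its 10 libraries and beside INSR in 9. The 2 libraries with IGFBP2 and the 1 with IGFBP4 had IGFBP5 as well. These overlaps share the detected features of each library, which ranged from 301 to 9256. IGF1 was above 0 in 21 of all 30 libraries, so a large overlap with it needs no link between the genes. The overlap expected from the detection of each gene was not computed.

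The genes with the most similar pattern were sought for the members above 0 in at least 15 libraries, by Spearman correlation of log2(FPKM + 1) over the 30 libraries with 2431 features above 0 in at least 15 libraries. For IGF1 they were NAALADL2 (rho = 0.728) and SOCS4 (0.674), with a median of 0.222 over all candidates. For IRS1 they were CNST (0.772) and CSNK1G3 (0.765, median 0.318). For IGF1R they were SLC18A2 (0.716) and NUDT3 (0.686, median 0.211), and for IGFBP5 they were HINT3 (0.749) and MLLT6 (0.688, median 0.147). The points share libraries, many zeros and the number of detected features, and the values are descriptions of these 30 libraries.

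A wider list of the pathway held 65 further genes, of which 57 were in the table and 28 passed the filter. A gene of this list was above 0 in a median of 9 libraries, with a range of 1 to 25, and 0 of the 57 passed the adjusted threshold of either test in any comparison. Among receptors GHRHR was found in 11 libraries and INSRR in 4, and the hormone gene GH1 was found in 2, at most 6.52 FPKM in LSG-7. Among binding partners IGFALS, which stabilizes circulating IGF complexes, was found in 7 libraries and IGFBP7 in 1. STC2 and STC1, which block PAPPA, were found in 14 and 11 libraries. Downstream, PTPN11 and SOS1, which were listed with the adaptors, were above 0 in 20 and 18 libraries. RICTOR and MTOR of the mTOR complexes were above 0 in 25 and 11, and BRAF and NRAS in 21 and 18. STAT5B and JAK2 of the growth hormone signalling pathway were above 0 in 11 and 10. RICTOR was thus found in more libraries than IGF1, the most frequent of the 10 genes.

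In the wider list, as over all features, medium follicles had more detected libraries than large follicles. Of the 57 genes, 44 were in fewer libraries from large than from medium follicles and 6 in more. Of all features, 73.8% were in fewer and 9.64% in more. By Fisher's exact test 7 of the 57 genes had an unadjusted p under 0.05 in this comparison, against 6.17% of all features. Among them were STC1 (2 of 10 large and 8 of 10 medium libraries), IRS2 (1 and 7), PTPN1 (0 and 7), PDPK1 (2 and 8), TSC1 (0 and 5) and STAT3 (0 and 6). STC1 was also found in 8 of 10 medium and 1 of 10 small libraries, beside GRB14 (5 and 0) and FOXO1 (7 and 1). PTPN1 and PIK3CB were each found in 0 of 10 large and 6 of 10 small libraries, and FOXO3 in 0 of 5 HMG and 4 of 5 LMG libraries. In medium against small follicles, 3 of the 57 genes had an unadjusted p under 0.05 (Fisher's exact test), against 0.979% of all features. The same held for 2 genes in large against small follicles (1.66% of all features) and 1 in HMG against LMG (1.49%). The other fertility comparisons had 0. None of the named genes passed after adjustment over all features. In limma, 28 genes of the list were tested. An unadjusted p under 0.05 was found for 1 in HMG against LMG (NRAS, beside 5.15% of all features tested). In HSG against LSG it was found for 2 (among them STAT5B, beside 6.39%). Large against medium follicles had 2 (STC1 and PTPN11, beside 11.5%) and large against small 1 (STAT5B, beside 8.42%). Medium against small follicles had 2 (FOXO3 and STC1, beside 5.13%) and the interaction 2 (IRS4 and NRAS, beside 4.67%). HLG against LLG and the fertility comparison averaged over sizes had 0, beside 4.8% and 3.95%.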

How the data were processed

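FPKM of GCs from 30 libraries were used as deposited. The authors removed rRNA, sequenced with Illumina equipment, kept uniquely aligned reads, dropped duplicates (picard) and obtained FPKM from Cufflinks, which scales by gene length and mapped fragments. The aligner and genome build are not given in the sources used here. The methods name Ensembl annotation, but the table holds NCBI gene numbers. Symbols were taken from RefSeq (ARS1.2), where 17945 of 17946 numbers matched. The other 2179 features had no NCBI number. The 10 genes, the wider list and the markers were chosen with earlier results of these data known.

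Features over 0.5 FPKM in 5 or more libraries (6058, of which 717 without an NCBI number) were tested on log2(FPKM + 1) with limma 3.58.1 (R 4.3.3, robust, trended), all 6 groups in 1 fit without covariates. Libraries above 0 were compared by Fisher's exact test (scipy 1.17.1) over all 20125 features. Both used Benjamini-Hochberg adjustment, a threshold of 0.05 and two-sided p-values, and both steps were tested on simulated data. All 10 genes were named, and of the wider list the genes past a test or, by role, the 2 found in the most libraries, except some that are not reported here. Genes of that list named for an unadjusted p were chosen after their values were seen, and so were IGF2 and GH1. No 2 libraries were identical, and the highest correlation between libraries was 0.402. Alternatives were a pseudocount of 0.1, no filter, a replicate block, rescaling, detected features as a covariate, fewer libraries, 2-group fits and a detection limit of 1 FPKM. Python 3.11.15, numpy 2.4.6, pandas 2.3.3 and matplotlib 3.10.9 were used.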

Additional observations from a re-analysis of the deposited data

Results flagged for a closer look

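Sets of the 5 values of a gene in a group were examined for a library far from the other 4, by the gap to its nearest neighbour divided by the range (Dixon's critical value 0.71). Of 53 sets, 28 passed. In 13 of these a single library was above 0, so that they pass by construction. Chance flags about 1 in 20 sets of normal values, a rate that cannot be applied to sets made mostly of zeros. GHR had 1.6 FPKM in HMG-10, 1.14 in HSG-10, 23.62 in LLG-9 and 0.87 in LSG-10. IGF1 had 0.79 FPKM in LLG-8, and IGF1R 0.18 in LLG-8. IGF2R had 0.04 FPKM in HLG-7, 1.72 in HMG-7, 0.04 in HSG-9 and 0.58 in LLG-8. INSR had 0.84 FPKM in HLG-10, 0.88 in HSG-8 and 2.27 in LMG-10. IRS1 had 0.48 FPKM in HLG-10, 6.1 in HSG-10 and 1.17 in LLG-8. IGFBP2 had 1.1 FPKM in HLG-10 and 0.3 in HSG-8, and IGFBP4 0.1 in HLG-5. IGFBP5 had 4.48 FPKM in HLG-8, 2.67 in HMG-5 and 1.74 in LSG-10. PAPPA had 0.47 FPKM in HLG-10, 0.75 in HMG-9, 0.27 in LLG-5, 2.02 in LMG-10 and 1.08 in LSG-8. The number of the 10 genes above 0 was 1 in LMG-7, against 7 to 8 in the other LMG libraries.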

How the results depend on the processing

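None of the 10 genes was called in any comparison under any of the 38 alternatives to the limma fit, or under the alternatives to the detection test. The lowest adjusted p in the limma alternatives was 0.439 over the 24 log2 differences followed there. These leave out the interaction and most genes in the comparisons within a size. With the library number as a replicate block 0 of the genes were called. Each group held 1 library of each number, so this block leaves all 24 log2 differences unchanged, and their kept direction is no check. Between High and Low fertility libraries of the same follicle size, the numbers did not pair the libraries. There, 0 of 15 same-number pairs correlated over 0.1 (median -0.000492), and in 3 of the 15 the library correlated best with its own number. Pairing by number across the follicle sizes of a population was not tested. Of the 24 log2 differences, 9 changed direction under some alternative, and the cause was not tested. Without the libraries with fewer than 2000 features only 19 of the 24 were fitted, as IGFBP5 failed the filter. Between large and medium follicles, IGF1 was 0.12, IRS1 0.26 and GHR 0.19 with detected features as a covariate, IGF1R was -0.12 with a pseudocount of 0.1, GHR was 0.19 without the 4 libraries absent from the mapping list, and IRS1 was 0.027 and GHR 0.55 without the libraries with fewer than 2000 features (chosen after the data were seen). Between large and small follicles, IGF1 was -0.12 and GHR -0.039 with a pseudocount of 0.1, IGF1R was 0.050 with the covariate, IGF1 was -0.097 and IGF1R 0.042 without the 4 libraries, and IGF1 was -0.23 and IGF1R 0.17 without the libraries with fewer than 2000 features. Leaving out each library in turn gave large minus medium differences of -0.58 to 0.029 for GHR and -0.33 to 0.074 for IGFBP5, and large minus small differences of -0.097 to 0.25 for IGF1, -0.064 to 0.049 for IGF1R (25 fits, as it failed the filter in the others), -0.23 to 0.35 for GHR and -0.12 to 0.24 for IGFBP5. At a detection limit of 1 FPKM a library held a mean of 1.4 of the genes in HLG, 1.2 in HMG, 0.8 in HSG, 0.4 in LLG, 1.6 in LMG and 1.4 in LSG. The number of detected features in a library limits all statements on values of 0. Read totals were not used, and the part of sequencing depth in these values was not tested.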

Other observations

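Of the 67 genes of the IGF system and its wider list, 9 had their highest value in 1 of the 7 libraries with fewer than 2000 features, namely HLG-5, HLG-8 and HMG-8. Among libraries with more features, HLG-9 held the highest value of 9 genes and HSG-7 that of 6. In HMG-8, where 1521 features were above 0, NRAS reached 13.01 FPKM and JAK2 11.5, whereas of the 10 genes only INSR and IRS1 were found there, at 0.05 and 0.04 FPKM. In LLG-9, where GHR was 23.62 FPKM, BRAF had its highest value as well, 10.87 FPKM. These genes were named after their values were seen.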
